A study of Homo sapiens with 9 samples.

Results

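PBXIP1, the gene of the hematopoietic PBX-interacting protein (HPIP), was analysed together with 5 genes of the homeodomain family that HPIP binds to or that works beside it, namely PBX2, PBX3, PKNOX1, MEIS1 and MEIS2. These 6 genes were chosen by name from the 27615 genes of the longest gene list, and all 6 were found. RNA was sequenced from MDA-MB-231, an established cell line from a triple-negative breast cancer (the labels give its cell type as breast cancer tissue). There were 3 libraries of cells given DMSO, the vehicle, 3 of cells given rimonabant and 3 of cells given TXX-1-10. Rimonabant is an antagonist of cannabinoid receptor 1, and TXX-1-10 is a derivative of it in which the three-position of the pyrazole carries a quaternary ammonium group, as the study describes it. The labels give neither the dose nor the duration of either treatment, so a difference between the compounds and a difference of dose or time cannot be told apart. Nothing in the labels says that the replicates were separate cultures, and p-values therefore measure only the spread between these libraries, which may be technical.

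HPIP is a corepressor that binds PBX proteins and can keep them from DNA, and it also acts outside the nucleus, where it binds microtubules and the oestrogen receptor and is linked to AKT and focal adhesion kinase signalling. PBX2 and PBX3 are DNA-binding homeodomain proteins of the three-amino-acid-loop-extension (TALE) class, which bind DNA in pairs with HOX, MEIS or PKNOX proteins. MEIS1, MEIS2 and PKNOX1 are their TALE partners, which help to hold PBX in the nucleus and often carry coactivators to the bound site. The study searched for compounds that lower HPIP and then sequenced the RNA of treated cells. The question taken up here is how the messages of HPIP and of its homeodomain partners stood in the treated cells. The files hold RNA only, and protein was not analysed here.

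The promoters of PBXIP1 and PKNOX1 are shown because PBXIP1 rose under both compounds, while PKNOX1 rose under rimonabant alone of the 2 in the test used here. Each is the stretch before the start of the gene, outside any annotated exon, from RefSeq sequence of build GRCh38.p14 and written on the strand of the gene. PBXIP1 lies at chr1:154956124-154956349 on the minus strand and PKNOX1 at chr21:42974312-42974509 on the plus strand. Capitals mark the letters CCAAT or, on the other strand, ATTGG, and the letters GGGCGG or, on the other strand, CCGCCC, which are the cores of the CCAAT box and the GC box.
PBXIP1: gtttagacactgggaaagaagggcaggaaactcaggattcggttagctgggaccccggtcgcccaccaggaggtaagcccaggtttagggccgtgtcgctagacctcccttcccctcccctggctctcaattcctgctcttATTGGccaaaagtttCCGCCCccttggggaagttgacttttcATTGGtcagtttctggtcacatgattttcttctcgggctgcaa
PKNOX1: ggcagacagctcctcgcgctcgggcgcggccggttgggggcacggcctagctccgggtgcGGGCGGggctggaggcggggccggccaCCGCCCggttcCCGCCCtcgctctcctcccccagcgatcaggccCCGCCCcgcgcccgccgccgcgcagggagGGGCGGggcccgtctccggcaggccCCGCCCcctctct

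The PBXIP1 stretch of 226 bases held 2 CCAAT cores and 1 GC box core, with a GC content of 54.4%. The PKNOX1 stretch of 198 bases held 6 GC box cores, no CCAAT core and a GC content of 82.8%. Among 35116 RefSeq promoters, searched over the 250 bases before the start on both strands, 32.0% held a CCAAT core and 9.5% held 2 or more, while 42.6% held a GC box core and 4.1% held 5 or more. The core that MEIS and PKNOX proteins bind, TGACAG, was present in 13.0% of these promoters and, among the 6 genes, in the PBX3 promoter. PBX3 also rose under rimonabant alone of the 2 compounds. Its promoter, which is not shown, held 3 GC box cores and no CCAAT core. Such matches are descriptions of the letters and do not show that a factor was bound there.

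A missing line in a list is not a 0, because every list followed a common order of genes from high to low counts and ended at its own point. The lists held between 4237 and 27615 genes. PBX2 was listed for all 9 libraries. PBXIP1, PBX3, PKNOX1 and MEIS2 were listed for 8, that is, for every library except rimonabant 1, so their rimonabant group had 2 libraries. MEIS1 was listed for 5 libraries, namely vehicle 1 and 3, rimonabant 3 and TXX-1-10 2 and 3. Each gene was tested in the largest set of libraries that all listed it, in a fit over all genes of that set with a mean count of at least 10, and it "passed" where its Benjamini-Hochberg adjusted p in edgeR's quasi-likelihood test was under 0.05. All 6 genes had that mean count.

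The totals behind the FPKM values (fragments per length of gene and per library total) lay between 17078370 and 19277808. Rimonabant 1 and TXX-1-10 3 stood apart from the other libraries of their groups. Across the 4237 genes common to all lists, the deviation of the library from its group mean had a Spearman correlation with gene length of -0.697 in rimonabant 1 and -0.696 in TXX-1-10 3, against 0.481 to 0.67 in the other 4 treated libraries and -0.019 to 0.028 in the vehicle libraries. Each mean included all libraries of the group, so a library that stands apart moves the deviations of the others the opposite way. The positive values therefore do not show a trend of those libraries' own. Values without TXX-1-10 3 are given beside the results below, and those without rimonabant 1 beside the results on PBX2, the only one of the 6 genes that this library lists. Of the genes checked for the line, VIM stood at 280 FPKM and CD44 at 39.8 FPKM in the vehicle libraries. Of 5 genes taken as low or absent in the line, ESR1 had 8 counts or fewer in every library that listed it, PGR had 9 to 13 and CDH1 had 0, whereas ERBB2 stood at 9.40 FPKM and EPCAM at 5.09 FPKM in vehicle. Libraries were also scaled by their summed counts over the genes of the fit, called the sum of listed counts below. This moved the median log2 fold change of TXX-1-10 against vehicle by 0.138 over 9395 genes in 8 libraries. Of the genes that passed there, 46% were higher, against 58% with that scaling, and for rimonabant the shares were 51% and 66.4%.

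PBXIP1 (ENSG00000163346) lies on chromosome 1, from 154944076 to 154956123 on the minus strand of GRCh38, and was counted over 3851 exonic bases. Its level was 8.47, 8.03 and 8.85 FPKM in vehicle 1, 2 and 3, from 557, 533 and 587 reads. In rimonabant 2 and 3 it was 12.1 and 11.7 FPKM, from 879 and 837 reads. In TXX-1-10 1, 2 and 3 it was 15.7, 14.6 and 16.3 FPKM, from 1162, 1036 and 1157 reads. The levels were low in vehicle, intermediate in rimonabant and high in TXX-1-10, with no overlap between any of the groups. In bulk RNA, a change in RNA per cell and a change in which cells are present cannot be told apart.

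The PBXIP1 message rose 1.84-fold with TXX-1-10, from 8.45 ± 0.413 (SD, n = 3) to 15.5 ± 0.856 FPKM (SD, n = 3). On the log2 scale this was 0.88 with a standard error of 0.0644 and a 95% interval of 0.738 to 1.02 (edgeR quasi-likelihood test, adjusted p = 9.59e-08). It also rose 1.41-fold with rimonabant, to 11.9 ± 0.283 FPKM (SD, n = 2), a log2 fold change of 0.50 with an interval of 0.341 to 0.655 (edgeR adjusted p = 0.000189). Between the compounds, PBXIP1 was 1.3-fold higher under TXX-1-10, with a log2 fold change of 0.38 and an interval of 0.228 to 0.533 (edgeR adjusted p = 0.000527). The change with TXX-1-10 stayed short of the log2 fold change of 1 that the study set for a changed gene. Its direction was opposite to the fall in HPIP mRNA that the study reports by RT-qPCR in this line. The study also reports less HPIP protein by Western blot in this line, and fewer HPIP-positive cells in tumours grown from it. RNA does not measure protein. The dose and duration for the sequenced cells are not given, and why the directions differ was not tested. Without TXX-1-10 3 the log2 fold changes of TXX-1-10 were 0.84 against vehicle and 0.34 against rimonabant, and both still passed.

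Passing the test was common in these data. In the fit over 8 libraries and 9395 genes, 75.2% of all genes passed for TXX-1-10 against vehicle, 46.5% for rimonabant against vehicle and 60.5% for TXX-1-10 against rimonabant. The size of the PBXIP1 change is therefore also given by its rank. Of the 9395 genes, 93.1% had a lower fold change than PBXIP1 with TXX-1-10, 94.3% had a lower one with rimonabant, and 84.9% had a lower one between the compounds. By level, PBXIP1 stood above 44% of the genes in vehicle, above 57.7% in rimonabant and above 68% in TXX-1-10, with the median gene at 9.72, 9.80 and 9.62 FPKM. The share of all genes whose groups do not overlap was not counted. A lack of overlap, here and below, therefore only describes the named gene or ratio.

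**Figure D1:**
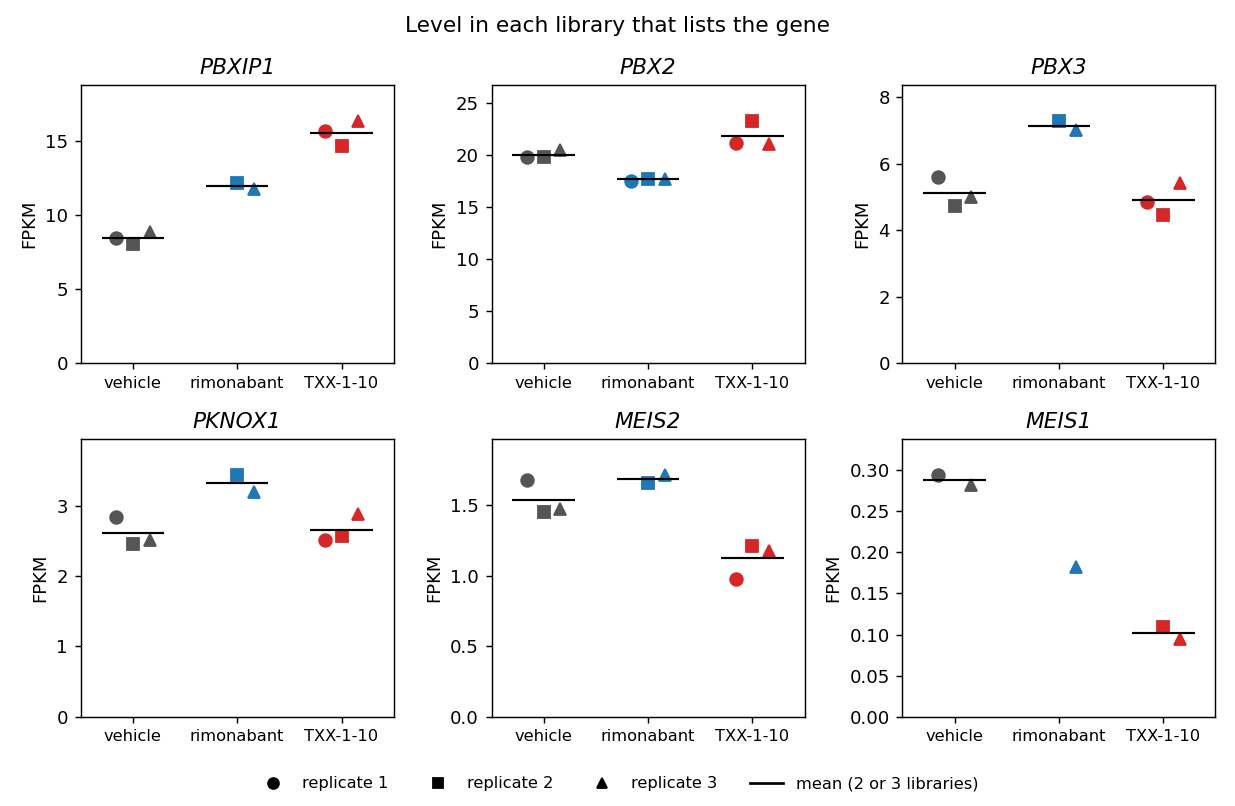
Level of each of the 6 genes in FPKM (vertical axis, from 0, with its own scale per gene) for vehicle, rimonabant and TXX-1-10 (horizontal axis), where each point is 1 library that lists the gene, its shape gives the replicate number and the line is the group mean. PBXIP1 steps up from 8.45 to 11.9 and 15.5 FPKM, PBX3 and PKNOX1 are highest in rimonabant, and MEIS2 and MEIS1 are lowest in TXX-1-10.

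PBX2 (ENSG00000204304) lies on chromosome 6, from 32184741 to 32190186 on the minus strand. It encodes a broadly expressed PBX protein and had the highest level of the 6 genes in every library. Vehicle 1, 2 and 3 had 19.9, 19.8 and 20.5 FPKM. Rimonabant 1, 2 and 3 had 17.5, 17.8 and 17.8 FPKM, and TXX-1-10 1, 2 and 3 had 21.2, 23.3 and 21.1 FPKM. Every rimonabant library lay below every vehicle library, and every TXX-1-10 library lay above them, although the steps were small.

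PBX2 fell with rimonabant to 0.881 of its vehicle level, by 0.18 on the log2 scale (standard error 0.0515, edgeR adjusted p = 0.0141). With TXX-1-10 the log2 fold change was 0.12 and the interval 0.00742 to 0.236, which did not pass after adjustment (edgeR adjusted p = 0.0524). Between the compounds PBX2 was 1.24-fold higher under TXX-1-10, with 0.31 on the log2 scale and a standard error of 0.0512 (edgeR adjusted p = 0.000463), and it was 0.33 without TXX-1-10 3 and 0.30 without rimonabant 1. In this fit over 9 libraries and 4236 genes, 48.9% of genes passed for rimonabant, 74.4% for TXX-1-10 and 64.5% between the compounds. The call for TXX-1-10 moved with the scaling, since the log2 fold change was 0.22 with an adjusted p of 0.00463 under TMM in edgeR, and with a library, since it was 0.15 without TXX-1-10 3 (edgeR adjusted p = 0.0321). Its fall with rimonabant no longer passed without vehicle 3 (edgeR adjusted p = 0.0503) or when libraries were scaled by the sum of listed counts (edgeR adjusted p = 0.151), and it still passed without rimonabant 1, at -0.18 (edgeR adjusted p = 0.0314). A 3-prime overlapping noncoding gene of the same strand, AL662884.1, shares exonic bases with PBX2. The pseudogene PBX2P1 had 0 to 4 counts in the 4 libraries that listed it.

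PBX3 (ENSG00000167081) lies on chromosome 9, from 125747345 to 125967377 on the plus strand, and encodes a PBX protein known as a partner of MEIS1 and HOXA9 in leukaemia. Its levels were 5.60, 4.72 and 4.99 FPKM in vehicle 1, 2 and 3. They were 7.28 and 7.01 FPKM in rimonabant 2 and 3, and 4.84, 4.45 and 5.42 FPKM in TXX-1-10 1, 2 and 3. Both rimonabant libraries lay above all others, and the TXX-1-10 libraries overlapped with vehicle.

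PBX3 rose 1.4-fold with rimonabant, a log2 fold change of 0.48 with a standard error of 0.0985 and an interval of 0.27 to 0.70 (edgeR adjusted p = 0.00182). With TXX-1-10 its log2 fold change was -0.06, with an interval of -0.257 to 0.144 (edgeR adjusted p = 0.589), so that a rise of the size seen with rimonabant lay outside the interval. Set directly against rimonabant, PBX3 under TXX-1-10 was at 0.687 of the level, a log2 fold change of -0.54 with a standard error of 0.0982 (edgeR adjusted p = 0.00047). Without TXX-1-10 3 this last value was -0.62. PBX3 and PBX2 thus stood on opposite sides of vehicle under rimonabant, PBX3 above and PBX2 below.

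PBX4, another member of the PBX family, was listed in 7 libraries and had few reads. It had 111 and 110 reads in vehicle 1 and 3, 110 and 118 in rimonabant 2 and 3, and 96, 66 and 119 in TXX-1-10 1, 2 and 3, so that the groups overlapped. Its log2 fold changes were -0.36 with TXX-1-10, with an interval of -0.817 to 0.0927, and -0.08 with rimonabant, with an interval of -0.566 to 0.412, and neither passed (edgeR adjusted p = 0.141 and 0.809). Without TXX-1-10 3, the highest of its group, the log2 fold change of PBX4 was -0.58 against vehicle and -0.51 against rimonabant, and both passed (edgeR adjusted p = 0.00479 and 0.0155). In this fit over 7 libraries and 11733 genes, 68.1% of genes passed for TXX-1-10, 34.8% for rimonabant and 54.9% between the compounds.

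A ratio of 2 genes in one library does not depend on the scaling of that library. It can still carry a trend with gene length where the 2 genes differ in length. PBX3 over PBX2 was 0.282, 0.238 and 0.243 in vehicle 1, 2 and 3, 0.410 and 0.394 in rimonabant 2 and 3, and 0.229, 0.191 and 0.257 in TXX-1-10 1, 2 and 3. PBXIP1 over PBX3 was 1.51, 1.70 and 1.78 in vehicle and 1.67 and 1.67 in rimonabant, which lie together, but 3.23, 3.28 and 3.01 in TXX-1-10. PBXIP1 and PBX3 thus kept a like ratio in vehicle and rimonabant, and PBXIP1 exceeded PBX3 by more in TXX-1-10. Against PBX2, PBXIP1 had ratios of 0.427, 0.404 and 0.431 in vehicle, 0.683 and 0.660 in rimonabant, and 0.739, 0.628 and 0.775 in TXX-1-10, so that for this pair the treated groups overlapped with each other and not with vehicle.

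PKNOX1 (ENSG00000160199) lies on chromosome 21, from 42974510 to 43033931 on the plus strand. Its protein, also called PREP1, is a broadly expressed partner of PBX that binds the same kind of site as MEIS. The levels were 2.85, 2.47 and 2.52 FPKM in vehicle 1, 2 and 3, and 3.45 and 3.20 FPKM in rimonabant 2 and 3. In TXX-1-10 1, 2 and 3 they were 2.51, 2.57 and 2.89 FPKM. As for PBX3, both rimonabant libraries lay above all others and the TXX-1-10 libraries overlapped with vehicle.

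PKNOX1 rose 1.27-fold with rimonabant, a log2 fold change of 0.35 with a standard error of 0.0962 (edgeR adjusted p = 0.0114). Its log2 fold change with TXX-1-10 was 0.02, with an interval of -0.17 to 0.216 (edgeR adjusted p = 0.821). Under TXX-1-10 it was at 0.799 of the rimonabant level, a log2 fold change of -0.32 (edgeR adjusted p = 0.0111). Without TXX-1-10 3 these last values were -0.04 and -0.39. Both calls that involve rimonabant rested on rimonabant 2, without which the log2 fold changes were 0.29 and -0.27 and did not pass (edgeR adjusted p = 0.102 and 0.1).

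MEIS2 (ENSG00000134138) lies on chromosome 15, from 36889204 to 37101299 on the minus strand, and encodes a MEIS protein known from limb, heart and neural development. It had 1.68, 1.45 and 1.47 FPKM in vehicle 1, 2 and 3, from 309, 270 and 274 reads. In rimonabant 2 and 3 it had 1.65 and 1.71 FPKM, from 336 and 343 reads, and in TXX-1-10 1, 2 and 3 it had 0.975, 1.21 and 1.18 FPKM, from 203, 241 and 234 reads. The TXX-1-10 libraries lay below all others, and rimonabant overlapped with vehicle.

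MEIS2 fell with TXX-1-10 to 0.731 of its vehicle level, by 0.45 on the log2 scale (standard error 0.102, interval -0.674 to -0.228, edgeR adjusted p = 0.00156). With rimonabant its log2 fold change was 0.14, with an interval of -0.103 to 0.374 (edgeR adjusted p = 0.33). Under TXX-1-10 it was at 0.666 of the rimonabant level, a log2 fold change of -0.59 with a standard error of 0.111 (edgeR adjusted p = 0.000651). Without TXX-1-10 3 the log2 fold change was -0.49 against vehicle and -0.62 against rimonabant. The exons of MEIS2 overlap an antisense gene, AC078909.1, and because the sources used here do not say whether reads were counted by strand, reads of the pair could not be told apart. The ratio of MEIS2 to PKNOX1, a pair of PBX partners that share a binding site, was 0.588, 0.588 and 0.584 in vehicle, 0.480 and 0.536 in rimonabant, and 0.388, 0.473 and 0.408 in TXX-1-10. The 3 groups did not overlap, although the nearest libraries of the treated groups, at 0.480 and 0.473, were close. MEIS2 and PKNOX1 were counted over 10798 and 7621 bases. With a gene length trend in the fit, the log2 fold changes with TXX-1-10 were -0.42 for MEIS2 and 0.04 for PKNOX1. With rimonabant they were 0.13 and 0.33. The ratio itself was not tested with that trend.

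MEIS1 (ENSG00000143995) lies on chromosome 2, from 66433452 to 66573869 on the plus strand, and encodes the MEIS protein best known from leukaemia and blood stem cells. It had the fewest reads of the 6 genes, with 55 and 53 in vehicle 1 and 3, 37 in rimonabant 3 and 22 and 19 in TXX-1-10 2 and 3. Per length and library total this was 0.295 and 0.281 FPKM in vehicle, 0.183 FPKM in rimonabant, and 0.109 and 0.0944 FPKM in TXX-1-10. The single rimonabant library lay between the other groups, which did not overlap.

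MEIS1 fell by 1.49 on the log2 scale with TXX-1-10, to 0.355 of the vehicle level, with an interval of -2.18 to -0.803 (edgeR adjusted p = 0.0015). In the tests described above it was the only one of the 6 genes past a log2 fold change of 1 in size. With libraries scaled by the sum of listed counts, PBXIP1 reached 1.02 with TXX-1-10, and under limma on log2(FPKM + 0.1) MEIS1 was at -0.94. In this fit over 5 libraries and 15633 genes, 51.9% of genes passed, and 4.13% had a lower fold change than MEIS1. The call rested on vehicle 1, without which the log2 fold change was -1.46 and did not pass (edgeR adjusted p = 0.0514). Without TXX-1-10 3 it was -1.39 (edgeR adjusted p = 0.00155). Rimonabant had 1 library that listed MEIS1, so no comparison with it was tested. The antisense gene MEIS1-AS3, whose exons overlap those of MEIS1, had 1 to 11 counts in the 4 libraries that listed it.

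**Figure D2:**
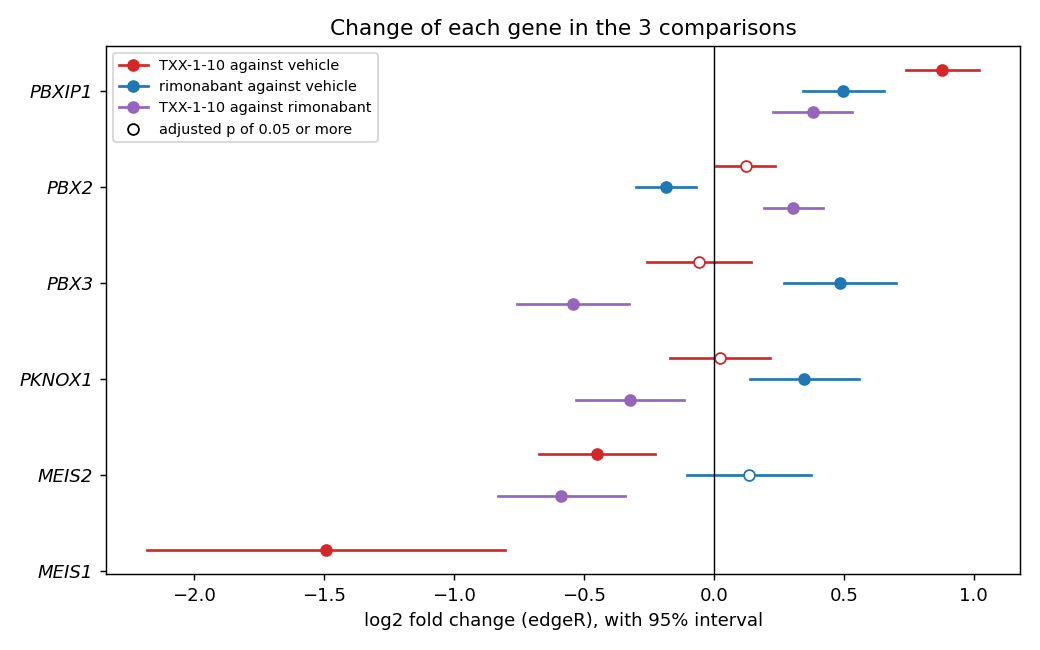
Log2 fold change of each gene (horizontal axis, edgeR fit, with its 95% interval as a bar) in the 3 comparisons, named by colour, where filled points passed at an adjusted p under 0.05 and open points did not. PBXIP1 is to the right of 0 in all 3 comparisons, PBX3 and PKNOX1 are to the right with rimonabant (0.48 and 0.35), and MEIS2 and MEIS1 are to the left with TXX-1-10 (-0.45 and -1.49).

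Counted over the genes, 3 of 6 passed for TXX-1-10 against vehicle, PBXIP1 upwards and MEIS2 and MEIS1 downwards. For rimonabant against vehicle 4 of 5 passed, PBXIP1, PBX3 and PKNOX1 upwards and PBX2 downwards. Between the compounds all 5 tested genes passed, with PBXIP1 and PBX2 higher and PBX3, PKNOX1 and MEIS2 lower under TXX-1-10. Over the 5 genes of the 8-library fit, the median log2 fold change was 0.02 with TXX-1-10, 0.35 with rimonabant and -0.32 between the compounds, beside -0.04, 0.003 and -0.04 over all 9395 genes. Beside the shares of all genes that passed, given above, counts over 5 or 6 genes say little about the genes as a group. The comparisons share their libraries, so the values of one are not independent of the others.

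**Figure D3:**
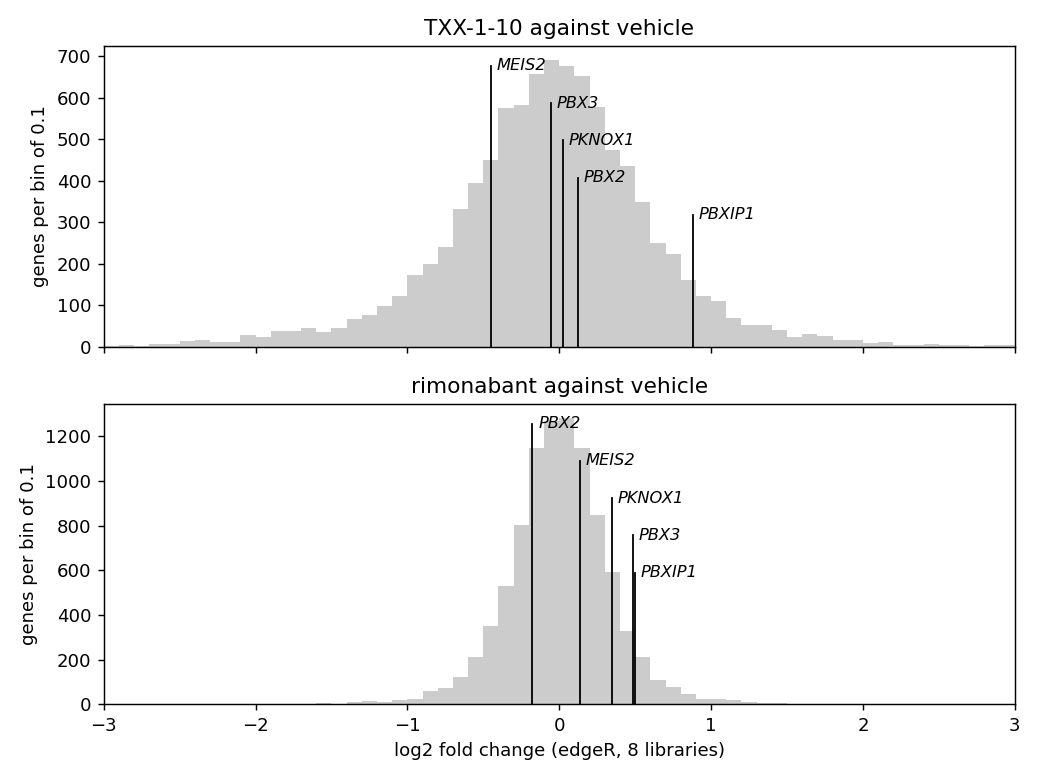
Number of genes (vertical axis) by log2 fold change in bins of 0.1 (horizontal axis) over the 9395 genes of the fit on 8 libraries, for TXX-1-10 (upper panel) and rimonabant (lower panel) against vehicle, with lines at the 5 genes tested there; the few genes beyond a log2 fold change of 3 in size are not shown. PBXIP1 lies in the right part of both distributions (0.88 and 0.50), and PBX3 moves from near 0 with TXX-1-10 to 0.48 with rimonabant.

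The order of the levels per length was PBX2, PBXIP1, PBX3, PKNOX1, MEIS2 and MEIS1 in vehicle, and it was the same in rimonabant and in TXX-1-10. No neighbours in this order overlapped within a treatment. PBX4, where listed, overlapped with PKNOX1 in vehicle, with a mean of 2.52 FPKM, and its 3 TXX-1-10 libraries ranged from 1.40 to 2.53 FPKM. In vehicle, PBX2 stood above 74.4% of the 9395 genes, PBX3 above 25.6%, PKNOX1 above 7.96% and MEIS2 above 1.98%.

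The genes whose pattern was most like that of PBXIP1 were found by the root-mean-square difference in log2(FPKM + 1), centred on the vehicle mean, over 8 libraries and 9390 other genes. The 5 nearest were UFM1, a ubiquitin-like modifier (0.0438), RAB22A, a small GTPase of endosomes (0.0493), DHRS7, a short-chain dehydrogenase (0.0494), NAGK, the N-acetylglucosamine kinase (0.0496), and PLPP5, a lipid phosphatase (0.058), against a median of 0.585 over all genes compared. UFM1 went from 12.8 FPKM in vehicle to 17.9 in rimonabant and 23.0 in TXX-1-10, and NAGK from 3.56 to 5.09 and 7.01 FPKM. This measure describes likeness over the same libraries only.

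Among the 13 other TALE genes, 10 were listed in some library and 3 were listed in at least 8 libraries. So that the genes of a list share one fit, these and the lists below were tested in the fit over 8 libraries, without rimonabant 1, also where a gene was listed in all 9. TGIF1, a TALE repressor that binds SMAD proteins and blocks their signalling, had 7.08, 7.34 and 7.23 FPKM in vehicle, 8.43, 8.57 and 8.50 in rimonabant, and 21.1, 22.0 and 20.9 in TXX-1-10. It rose by 1.56 on the log2 scale with TXX-1-10 and by 0.24 with rimonabant (edgeR adjusted p = 5.47e-11 and 0.00361), with the same values of 1.56 and 0.24 in the fit over 9 libraries. Its close relative TGIF2 moved the other way, with a log2 fold change of -0.64 with TXX-1-10 and -0.31 with rimonabant (edgeR adjusted p = 1.01e-05 and 0.0112). IRX3, an Iroquois factor, fell by 0.57 on the log2 scale with rimonabant (edgeR adjusted p = 0.00206), and its -0.16 with TXX-1-10 did not pass (edgeR adjusted p = 0.166). Of the 3, therefore, 1 was higher and 1 lower with TXX-1-10, and 1 was higher and 2 were lower with rimonabant. In that fit 75.2% and 46.5% of all genes passed, so counts over 3 genes say little about the list. Without TXX-1-10 3, the log2 fold changes with TXX-1-10 were 1.58 for TGIF1, -0.63 for TGIF2 and -0.26 for IRX3, and that of IRX3 passed (edgeR adjusted p = 0.00638).

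The HOX proteins, the DNA partners of PBX, came from genes of which most had very few reads. In vehicle 1, which had one of the longest lists, 35 of the 39 HOX genes were listed, and 24 of these had under 10 counts. HOXB9 was the only HOX gene listed in 8 libraries. It had 9.37, 8.81 and 8.03 FPKM in vehicle, 10.2 and 10.1 in rimonabant, and 16.5, 17.0 and 16.8 in TXX-1-10, with no overlap between groups. HOXB9 rose by 0.94 on the log2 scale with TXX-1-10 (edgeR adjusted p = 1.05e-07, with a standard error of 0.0697) and by 0.22 with rimonabant (edgeR adjusted p = 0.0403), and it was higher by 0.72 between the compounds (edgeR adjusted p = 6.84e-06). Its change with rimonabant did not pass under DESeq2. Without TXX-1-10 3 its log2 fold change with TXX-1-10 was 0.94.

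A list of 17 genes that the literature links to HPIP, such as AKT1 and the focal adhesion kinase gene, had 12 members in the fit. With TXX-1-10, 2 rose, 8 fell and 2 did not pass, with a median log2 fold change of -0.28. With rimonabant, none rose, 6 fell and 6 did not pass, with a median of -0.17. Thus 10 of 12 passed with TXX-1-10 and 6 of 12 with rimonabant, beside 75.2% and 46.5% of all genes, so the counts are near the background. Without TXX-1-10 3 the counts with TXX-1-10 were again 2 and 8, with a median of -0.21, and with rimonabant 1 rose and 8 fell. In that fit 80.4% of all genes passed for TXX-1-10 and 61.9% for rimonabant. CTSD (cathepsin D) and SNAI2 (the transcription factor Slug) were the ones that rose with TXX-1-10, by 0.67 and 0.34 on the log2 scale (edgeR adjusted p = 3.7e-06 and 0.000546), and SNAI2 fell by 0.56 with rimonabant (edgeR adjusted p = 0.000178). Kinase genes of the list had small log2 fold changes, of -0.36 for AKT1, -0.28 for AKT2, -0.30 for MAPK3 and -0.32 for PTK2, the focal adhesion kinase gene, with TXX-1-10, all of which passed. When libraries were scaled by the sum of listed counts, 3 of the 12 rose and 6 fell with TXX-1-10, while with rimonabant 1 rose and 5 fell. CCNB1, which encodes cyclin B1 of mitotic entry, had the largest change of the list, with log2 fold changes of -1.99 with TXX-1-10 and -0.998 with rimonabant (edgeR adjusted p = 8.95e-11 and 1.35e-06).

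Of 8 genes for cofactors of PBX and MEIS proteins, 1 rose, 4 fell and 3 did not pass with TXX-1-10, with a median of -0.42, and the counts were the same with rimonabant, with a median of -0.21. That is 5 of 8 in each, beside 75.2% and 46.5% of all genes, and shows nothing particular to the cofactors. Among those that fell with TXX-1-10 were HDAC1, a histone deacetylase of corepressor complexes that PBX recruits, by 0.61 on the log2 scale, and MYBBP1A, which binds PKNOX1, by 0.67. MYH10, a nonmuscle myosin found with PKNOX1, fell by 1.48 on the log2 scale with TXX-1-10. EP300, a histone acetyltransferase, rose by 0.42 on the log2 scale with TXX-1-10 (edgeR adjusted p = 0.0164), and its 0.25 with rimonabant did not pass (edgeR adjusted p = 0.216). The calls on EP300 moved with the libraries, since its rise with TXX-1-10 did not pass in the fit over 9 libraries (edgeR adjusted p = 0.0961), and without TXX-1-10 3 it was 0.62 with TXX-1-10 and 0.25 with rimonabant and both passed (edgeR adjusted p = 1.16e-12 and 9.88e-05). Between the compounds none of the 8 rose and 4 fell, beside 60.5% of all genes that passed. MYH10 was at a log2 fold change of -1.14 there (edgeR adjusted p = 2.06e-07). Under TMM or scaling by the sum of listed counts, 2 of the 8 rose with TXX-1-10, and 2 rather than 4 fell between the compounds. Without TXX-1-10 3, 2 rose and 4 fell with TXX-1-10, 2 rose and 5 fell with rimonabant, and 3 rose and 4 fell between the compounds. The shares of all genes that passed there were 80.4%, 61.9% and 70.5%.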

How the data were processed

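The authors deposited 9 lists, 1 per library, each with a whole-number count and an FPKM value per gene. The submitters' processing notes name HISAT2 2.0.5 and featureCounts 1.5.0-p3 without their roles. The methods state oligo(dT) selection and uniquely mapped exonic reads; strand was not given in the sources used here. Each list stopped partway through its last line, which was left out. All 27615 genes matched GENCODE 29 by position. The library size was the total behind the FPKM values, which their counts and gene lengths give. It is not a sum of gene counts. Over the whole list, the counts of vehicle 1 and 3 summed to 17492638 and 17383157, above their totals of 17078370 and 17221591. In every other library they summed to less than the total, as in TXX-1-10 1 with 17586399 against 19277808. Counts were tested with edgeR 4.0.16 (quasi-likelihood, treatment only, all groups in one fit, mean count of at least 10, Benjamini-Hochberg over all genes of the fit). The largest sets of libraries were 9, 8, 7 and 5. Standard errors, the fold change divided by the square root of F, are approximate; intervals are 95%. The biological coefficient of variation was 0.0605 in the 8-library fit. No pair of libraries agreed within sampling noise. Alternatives used limma 3.58.1 on log2(FPKM + 1) and log2(FPKM + 0.1), DESeq2 1.42.0, other scalings, a filter at a mean FPKM of 1, a gene length trend and a replicate block. The fit was tested on simulated data. The software was R 4.3.3, matplotlib 3.10.9, scipy 1.17.1, numpy 2.4.6, pandas 2.3.3 and Python 3.11.15. Genes are named because they are among the 6 genes, the 5 most like PBXIP1, or lists of partners and linked genes. The fits of PBX4 and the lists without TXX-1-10 3, and of list genes over 9 libraries, were chosen after seeing the data. Some genes of these lists are not reported here. The genes and lists were chosen with earlier results of these data known.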

Additional observations from a re-analysis of the deposited data

How the results depend on the processing

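For the 16 log2 fold changes of the 6 genes, 316 values were computed under other settings. Of these, 296 kept the direction and the side of the threshold, 5 no longer passed, 8 newly passed and 7 changed sign. PBXIP1 kept both under all 20 alternatives of each comparison, with log2 fold changes of 0.81 to 1.02 for TXX-1-10 against vehicle, 0.45 to 0.57 for rimonabant against vehicle and 0.34 to 0.44 between the compounds, and with 1 library left out of 0.84 to 0.92, 0.46 to 0.53 and 0.34 to 0.42. The sign changed for values near 0. For PBX3 with TXX-1-10 the log2 fold change was 0.080 when scaled by the sum of counts, 0.015 without vehicle 1 and 0.0080 without TXX-1-10 2, with -0.13 to 0.015 over all single libraries left out. For PKNOX1 with TXX-1-10 it was -0.017 without vehicle 2 and in the smaller set of libraries, -0.0014 without vehicle 3 and -0.041 without TXX-1-10 3, with -0.041 to 0.090 over all single libraries left out. PBX2 with TXX-1-10 newly passed at 0.22 under TMM and DESeq2, 0.29 by the sum of counts, 0.11 and 0.12 under limma, and 0.23 with a gene length trend. The fold change of MEIS1 was -0.23 under limma with a pseudocount of 1, which understates the change of a low gene; the filter at a mean FPKM of 1 removed it. With 1 library left in an arm, that library was assumed to vary like the others.

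Whether the replicate numbers pair libraries is not given by the labels. Deviations of same-numbered libraries correlated at -0.079 to 0.013 between TXX-1-10 and vehicle and at -0.787, 0.826 and -0.606 between the compounds. Deviations in the treated groups followed gene length, as given above, so these values cannot show whether libraries were paired. With the replicate block, the log2 fold change of PBXIP1 was 0.88 with TXX-1-10, 0.50 with rimonabant and 0.37 between the compounds, and 2 of 5, 4 of 5 and 5 of 5 genes passed. MEIS1 could not be fitted with the block. The low counts of MEIS1, PBX4 and most HOX genes limit what could be seen at this depth.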
